A study of Mus musculus with 12 samples.

Results

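The genes described here are 10 transcripts used to recognise dendritic cells, out of 50643 genes counted. The plasmacytoid group holds Siglech, Ccr9, Tcf4 and Klk1, and the conventional group holds Xcr1, Clec9a, Cd209a, Clec10a, Flt3 and Zbtb46. They were chosen by name, and were selected on their levels in CPM (counts scaled to a common library total) across these same groups of libraries, so their levels and fold changes are a description and carry no test. Tests are given for other dendritic cell genes. The RNA came from natural killer (NK) cells isolated by negative selection from spleens of C57BL/6 mice, so dendritic cells were not the cells the preparation was made to hold.

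The 12 libraries fall into 4 groups of 3. Wild-type mice were unchallenged or challenged with Listeria, a bacterium that replicates inside macrophages and other cells and that splenic dendritic cells carry and sense. Mirc11-/- mice, called knockout here, were likewise unchallenged or challenged. Mirc11 is a cluster that encodes the microRNAs miR-24-2, miR-27a and miR-23a. No Cre driver, age, dose, route or time of challenge is given in the labels. The libraries are described as biological replicates, but not as separate animals, so p-values measure the spread between these libraries only.

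Plasmacytoid dendritic cells sense viral and bacterial nucleic acids through endosomal Toll-like receptors and are known for producing type I interferon, under the control of the E protein TCF4. Conventional dendritic cells take up antigen and present it to T cells. The type 1 subset depends on BATF3 and IRF8 and cross-presents antigen from dead cells, whereas the type 2 subset depends more on IRF4 and presents antigen to CD4 T cells. Both arise from progenitors that carry FLT3, and ZBTB46 marks the conventional branch. On sensing microbes, conventional cells mature, which means that they raise CCR7, costimulatory molecules and cytokines.

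All libraries carried the defining transcripts of NK cells, and the 8 NK markers (Gzma, Klrk1, Prf1, Ncr1, Klrb1c, Eomes, Klra8 and Itga2) summed to 5959 to 6846 CPM in unchallenged and 3340 to 3425 in challenged wild-type libraries, and to 6246 to 6448 in unchallenged and 4463 to 5096 in challenged knockout libraries. Library totals ran from 17624530 to 23665679 counts. The 3 microRNA genes of the cluster had 0 counts in all 12 libraries, so they give no check of the genotype labels. Gm26532, a noncoding gene chosen after its values were seen because it lies at the locus, measured 3.3 ± 1.4, 3.33 ± 0.97, 0.253 ± 0.21 and 1.52 ± 1.0 CPM (SD, n = 3), in the order unchallenged wild-type, challenged wild-type, unchallenged knockout, challenged knockout. Challenged knockout replicate 3 had 2.7 CPM of it, within the wild-type range. Sex was confounded with the groups: Xist ran from 1154 to 2025 CPM in wild-type, from 0.362 to 1.08 in unchallenged knockout and from 526 to 1027 in challenged knockout libraries. The 4 Y-linked transcripts measured summed to 284 to 361 CPM in unchallenged knockout, 122 to 220 in challenged knockout and 117 in unchallenged wild-type replicate 4, against 1.12 to 3.27 CPM in the other wild-type libraries. Each challenged knockout library and that wild-type library thus carried Xist and Y-linked transcripts together, and the labels do not say whether a library pools animals. Genotype and sex cannot be told apart, and neither can challenge and sex within the knockout. Leaving out unchallenged wild-type replicate 4 and challenged knockout replicate 3 together changed the fold of 1 of the 10 genes beyond the spread between replicates, Zbtb46, whose difference between the challenge responses was -1.98 on the log2 scale with all libraries and -1.83 without them.

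The promoters of 6 members are shown because their genes moved in different ways across the 4 groups. Each is the RefSeq window of 300 bases in GRCm38.p6, 250 before and 50 after the annotated start, printed 5′ to 3′ on the strand of the gene: Siglech at chr7:55767934-55768233 (plus strand), Ccr9 at chr9:123766961-123767260 (plus strand), Klk1 at chr7:44225110-44225409 (plus strand), Cd209a at chr8:3748935-3749234 (minus strand), Flt3 at chr5:147400440-147400739 (minus strand) and Zbtb46 at chr2:181424339-181424638 (minus strand). For Ccr9 and Zbtb46 this start lies inside the longer GENCODE gene. Capitals mark a match to a searched motif, and Flt3 holds none.
Siglech: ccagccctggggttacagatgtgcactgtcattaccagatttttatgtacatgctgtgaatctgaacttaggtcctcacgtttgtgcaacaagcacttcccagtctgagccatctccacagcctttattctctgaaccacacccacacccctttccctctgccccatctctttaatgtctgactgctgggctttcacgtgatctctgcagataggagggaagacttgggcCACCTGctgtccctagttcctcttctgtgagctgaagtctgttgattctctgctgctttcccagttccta
Ccr9: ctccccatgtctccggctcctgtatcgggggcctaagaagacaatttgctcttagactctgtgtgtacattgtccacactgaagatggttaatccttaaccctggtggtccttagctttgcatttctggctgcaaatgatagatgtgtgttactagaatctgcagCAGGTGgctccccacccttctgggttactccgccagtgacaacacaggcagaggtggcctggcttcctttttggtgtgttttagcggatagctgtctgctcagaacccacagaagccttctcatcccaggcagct
Klk1: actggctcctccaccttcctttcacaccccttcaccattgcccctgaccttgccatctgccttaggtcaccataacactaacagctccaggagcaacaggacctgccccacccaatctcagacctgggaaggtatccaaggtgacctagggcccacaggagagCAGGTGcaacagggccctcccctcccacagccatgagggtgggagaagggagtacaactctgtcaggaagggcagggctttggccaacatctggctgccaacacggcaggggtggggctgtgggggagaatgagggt
Cd209a: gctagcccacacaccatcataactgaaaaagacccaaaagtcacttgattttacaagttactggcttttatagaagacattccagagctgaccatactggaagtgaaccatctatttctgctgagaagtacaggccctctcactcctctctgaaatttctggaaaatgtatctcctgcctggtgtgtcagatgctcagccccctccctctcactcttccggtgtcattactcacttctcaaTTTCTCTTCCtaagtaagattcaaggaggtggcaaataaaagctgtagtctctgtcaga
Flt3: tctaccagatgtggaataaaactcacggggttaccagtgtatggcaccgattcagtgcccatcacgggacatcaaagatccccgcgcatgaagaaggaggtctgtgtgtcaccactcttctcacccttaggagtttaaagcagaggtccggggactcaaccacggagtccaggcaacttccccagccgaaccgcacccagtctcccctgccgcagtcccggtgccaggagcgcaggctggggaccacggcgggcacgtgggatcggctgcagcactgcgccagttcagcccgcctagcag
Zbtb46: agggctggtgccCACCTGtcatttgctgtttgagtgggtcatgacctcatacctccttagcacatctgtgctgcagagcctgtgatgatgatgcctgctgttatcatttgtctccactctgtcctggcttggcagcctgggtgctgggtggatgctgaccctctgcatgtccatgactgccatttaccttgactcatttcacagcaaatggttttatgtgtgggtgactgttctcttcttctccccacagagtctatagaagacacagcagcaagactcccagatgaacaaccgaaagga

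In the table of promoters 8 of the 10 members had an entry. In all, 3 motifs were searched on both strands, after the values of the genes were known. The hexamer CACCTG, counted also as its reverse complement, is a form of the E-box bound by E proteins such as TCF4. It was present in 3 of the 3 plasmacytoid promoters with an entry, beginning 20 bases before the start in Siglech, 85 in Ccr9 and 87 in Klk1, and in 1 of the 5 conventional ones, 238 bases before the start in Zbtb46. It occurs in 20.2% of all 32851 promoters of this length. The ETS-IRF composite element of PU.1 with IRF4 or IRF8, searched as a GGAA core, any 2 bases and a GAAA core, was present in Cd209a, 9 bases before the start on the opposite strand, and in 2.72% of all promoters. The core of the interferon-stimulated response element, searched as a pair of GAAA cores with any 2 bases between, was found in no member and in 3.44% of all promoters. No match overlapped another. These matches describe letters in a window and are not evidence of binding.

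**Figure D1:**
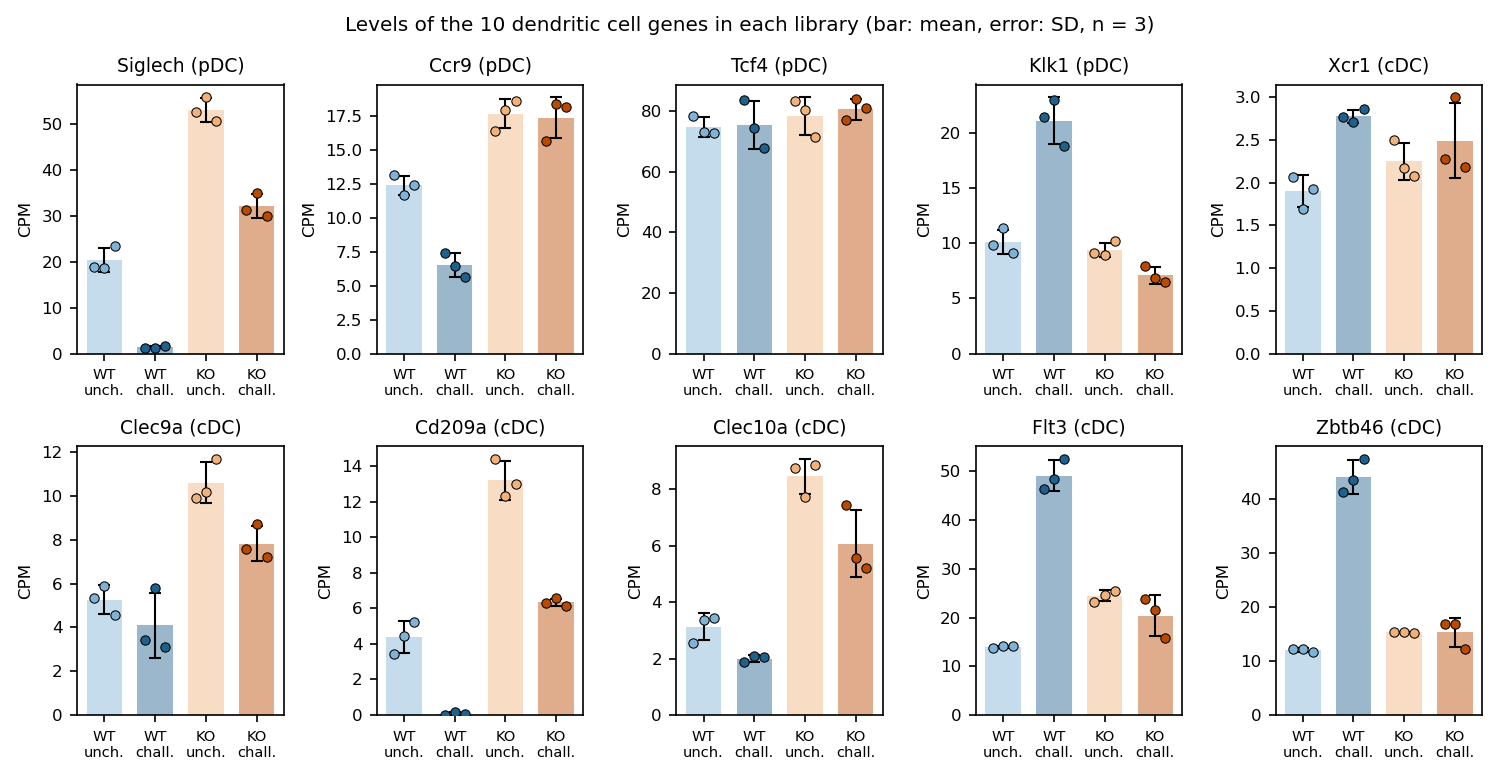
Level of each of the 10 genes in CPM (vertical axes, starting at 0) in 12 libraries of 4 groups, wild-type (WT) and knockout (KO), unchallenged (unch.) and challenged (chall.). Points are libraries, bars are group means and error bars are SD (n = 3). Siglech and Cd209a are near 0 in challenged wild-type libraries, at 1.34 and 0.0742 CPM, whereas Flt3 and Zbtb46 have their highest level there, at 49.1 and 44.1 CPM.

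Among the plasmacytoid genes, Siglech differed most between groups. It encodes Siglec-H, an endocytic sialic acid-binding receptor of mouse plasmacytoid dendritic cells, and lies on chromosome 7 (GRCm38, 55768178 to 55778925, plus strand). In unchallenged wild-type libraries it measured 18.8, 18.7 and 23.3 CPM, and in challenged wild-type libraries 1.17, 1.24 and 1.61 CPM. Unchallenged knockout libraries had 52.6, 55.7 and 50.6 CPM and challenged knockout libraries 31.1, 34.9 and 30.0 CPM. No pair of groups overlapped, and the order was unchallenged knockout, challenged knockout, unchallenged wild-type and challenged wild-type. After challenge Siglech was 14.0-fold lower in wild-type (log2 fold change -3.81 ± 0.14, SE) and 1.67-fold lower in knockout (-0.74 ± 0.1). The knockout exceeded the wild-type by 2.64-fold without challenge and by 22.3-fold with it. The challenged wild-type level rests on 91 counts over 3 libraries, and the ratio of pooled CPM to the unchallenged group was 15.2-fold (95% exact interval 12.2 to 19.0, which covers counting error only). In bulk RNA, fewer cells of a type and less RNA per cell cannot be told apart, here and for every gene below.

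Ccr9, the receptor for the gut and thymus chemokine CCL25, is carried by plasmacytoid dendritic cells and by some T cells. It followed the direction of Siglech in wild-type with a smaller size. Unchallenged wild-type libraries measured 13.2, 11.7 and 12.4 CPM and challenged ones 7.4, 6.49 and 5.68 CPM, with no overlap. Unchallenged knockout libraries measured 16.4, 18.0 and 18.6 CPM and challenged ones 15.7, 18.4 and 18.2 CPM, and these overlapped. The log2 fold change with challenge was -0.83 ± 0.12 in wild-type and -0.03 ± 0.11 in knockout, and the knockout was higher than wild-type by 0.52 ± 0.11 without and by 1.32 ± 0.11 with challenge. The gene (chromosome 9, 123678439 to 123784330, plus strand) shares exonic bases with Slc6a20a on the opposite strand and with a pair of noncoding genes of low level, and no source used here says whether the counting used strand. Slc6a20a measured 1.13 ± 0.38, 0.322 ± 0.18, 4.36 ± 0.86 and 2.9 ± 0.54 CPM in unchallenged and challenged wild-type and unchallenged and challenged knockout libraries, so its level moved in the same order, and its part in the Ccr9 counts was not tested.

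Tcf4, which encodes the E protein that specifies and maintains the plasmacytoid lineage, stayed near one level. Its values were 78.5, 73.2 and 72.6 CPM in unchallenged wild-type and 83.5, 74.4 and 67.9 CPM in challenged wild-type libraries. They were 83.2, 80.4 and 71.3 CPM in unchallenged knockout and 76.9, 83.9 and 80.9 CPM in challenged knockout libraries. All 4 groups overlapped one another, and the fitted log2 differences lay between -0.08 ± 0.11 and 0.11 ± 0.08. The sign of the small difference in the knockout challenge (0.03 ± 0.08) depended on the scaling, at -0.01 under upper-quartile factors. Tcf4 is also expressed in B cells and stromal cells, and the 10 B cell markers summed to 1215 to 2040 CPM across the libraries.

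Klk1 was the plasmacytoid member with the opposite pattern. It encodes tissue kallikrein, a serine protease that is found in mouse plasmacytoid dendritic cells and abundantly in exocrine glands such as the pancreas (chromosome 7, 44225360 to 44229618, plus strand). Unchallenged wild-type libraries measured 9.82, 11.4 and 9.14 CPM and challenged wild-type libraries 21.4, 23.0 and 18.8 CPM. Unchallenged knockout libraries measured 9.08, 8.96 and 10.2 CPM and challenged knockout libraries 7.9, 6.84 and 6.46 CPM. Every challenged wild-type library was above all others, every challenged knockout library was below all others, and the unchallenged groups overlapped. The log2 fold change with challenge was 1.16 ± 0.12 in wild-type and -0.42 ± 0.12 in knockout, and the challenged genotypes differed by -1.67 ± 0.12. Its 13 Klk1b relatives, near-identical genes between which reads could be divided, summed to 0.689 to 1.25 CPM as group means.

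Transcripts of pancreatic acinar cells were measured beside Klk1. The 14 acinar markers summed to 626 to 819 CPM in unchallenged and 1173 to 1488 in challenged wild-type libraries, and to 412 to 448 in unchallenged and 90.4 to 269 in challenged knockout libraries, and none was at 0 in any group. With challenge in wild-type 8 of the 14 rose and 1 fell, Amy2b, whereas in knockout 12 fell and none rose (edgeR, adjusted p under 0.05). Of all tested genes 32.4% rose and 30.9% fell in wild-type, and 15.6% rose and 11.5% fell in knockout. All 14 were lower in challenged knockout than in challenged wild-type libraries, where 25.9% of all tested genes were. The order of the 4 groups in the acinar sum was the same as in Klk1, apart from the overlap of the unchallenged groups in Klk1. The part of acinar RNA in the Klk1 level was not tested.

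The erythroid markers were measured beside Siglech and Cd209a. The 7 erythroid genes (4 haemoglobin genes, Alas2, Slc4a1 and Klf1) summed to 11647 to 13626 CPM in unchallenged and 1738 to 2321 in challenged wild-type libraries, and to 36643 to 41247 in unchallenged and 19908 to 24964 in challenged knockout libraries, which is the order of the groups in both genes. Of these markers 6 fell with challenge in each genotype, and all 7 were higher in knockout both without and with challenge (edgeR, adjusted p under 0.05). Of all tested genes 30.9% fell with challenge in wild-type and 11.5% in knockout. The shares of all tested genes that were higher in knockout were 6.64% without and 22.7% with challenge. None of the 7 markers was at 0. Over the 12 libraries the gene with the profile most like Siglech was Sox6, a transcription factor of erythroid and other cells, with 12.4 ± 0.58, 0.795 ± 0.057, 33.9 ± 0.49 and 23.0 ± 3.0 CPM in unchallenged and challenged wild-type and in unchallenged and challenged knockout libraries. The gene most like Cd209a was Epb42, which encodes a protein of the red cell membrane skeleton, with 12.6 ± 1.4, 0.442 ± 0.12, 63.9 ± 0.92 and 42.6 ± 7.3 CPM. The next nearest genes were St5 and Gfap for Siglech, and Rhd and Cd209d for Cd209a. All were picked from the tested genes for likeness to these same levels, so they are a description and carry no test. The part of erythroid cells or of a shared condition in the levels of Siglech and Cd209a was not tested.

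**Figure D2:**
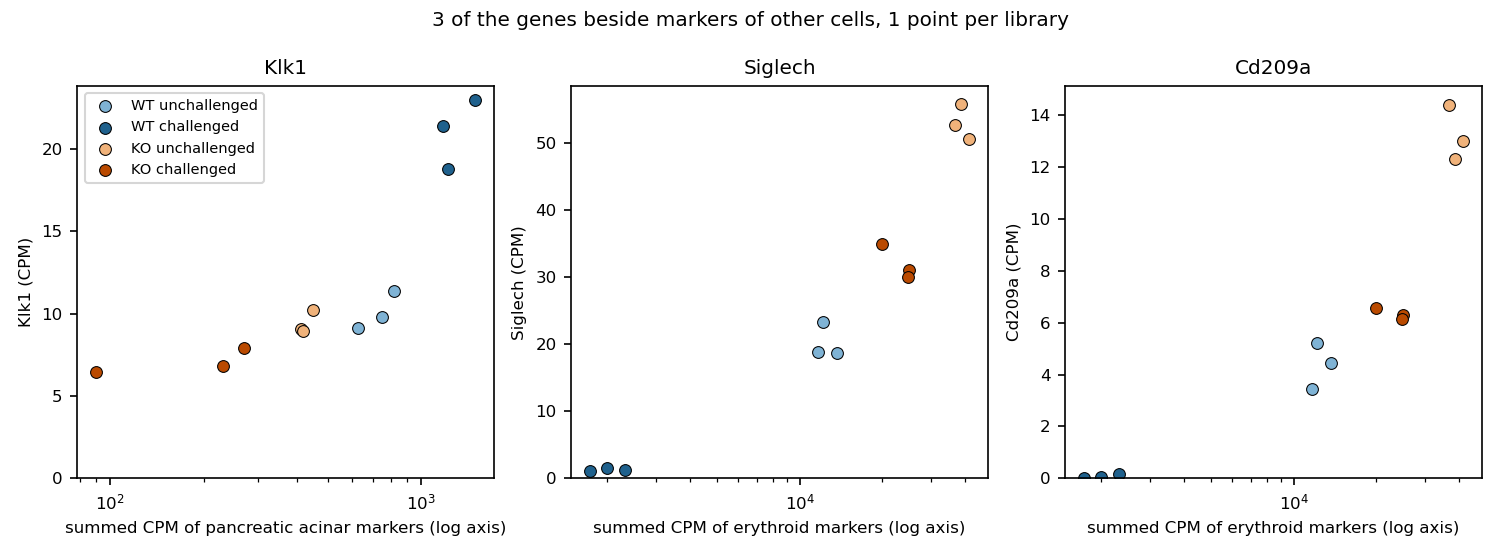
Klk1 against the summed CPM of 14 pancreatic acinar markers, and Siglech and Cd209a against that of 7 erythroid markers (horizontal log axes), with 1 point per library and colours for the 4 groups. The 3 challenged wild-type libraries lie highest in both Klk1 and acinar markers (1173 to 1488 CPM) and lowest in Siglech, Cd209a and erythroid markers (1738 to 2321 CPM).

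Both type 1 conventional genes were low and changed little beside Siglech. Xcr1 (chromosome 9, 123852315 to 123862029, minus strand, 68.0 kb from Ccr9) encodes the receptor for XCL1, a chemokine that NK cells release. It measured 2.07, 1.69 and 1.93 CPM in unchallenged wild-type and 2.77, 2.71 and 2.86 CPM in challenged wild-type libraries, which did not overlap. In knockout it measured 2.5, 2.17 and 2.08 CPM without and 2.28, 3.0 and 2.18 CPM with challenge, and these overlapped. Its log2 fold change with challenge was 0.66 ± 0.18 in wild-type. The group totals were 109 to 189 counts, so counting error alone spans 1.15 to 1.88 around the pooled wild-type ratio of 1.47 (95% exact interval).

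Clec9a encodes DNGR-1, which recognises actin filaments exposed on dead cells (chromosome 6, 129408862 to 129424763, plus strand). Unchallenged wild-type libraries measured 5.35, 5.88 and 4.57 CPM and challenged ones 3.42, 5.78 and 3.09 CPM. Replicate 2 of the challenged wild-type group stood above the other two and gave the overlap: the log2 fold change was -0.26 ± 0.2 with it and -0.59 without it. Knockout libraries were higher than all wild-type libraries, with 9.93, 10.2 and 11.7 CPM without and 7.56, 8.71 and 7.2 CPM with challenge. The knockout exceeded the wild-type by 1.03 ± 0.19 (log2) without challenge and by 0.84 ± 0.19 with it, or 1.17 without that replicate. An exon of Clec9a is shared with Clec1b on the same strand, whose level was 29.6 ± 5.6, 8.06 ± 0.91, 10.3 ± 1.8 and 14.3 ± 2.5 CPM in unchallenged and challenged wild-type and unchallenged and challenged knockout libraries. Between the unchallenged genotypes Clec1b was thus lower and Clec9a higher in knockout, whereas between the challenged genotypes both were higher in knockout. With challenge both means were lower in wild-type, and in knockout the mean of Clec1b was higher and that of Clec9a lower. No source used here says how reads on the shared exon were divided, and the part of Clec1b in the Clec9a counts was not tested.

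Of the type 2 genes, Cd209a had the largest fold of all 10 members. It encodes a C-type lectin of the DC-SIGN family (chromosome 8, 3743397 to 3748984, minus strand). It measured 3.44, 4.45 and 5.23 CPM in unchallenged wild-type libraries. In challenged wild-type libraries it had 0, 4 and 1 counts, or 0, 0.178 and 0.0447 CPM. In knockout it measured 14.4, 12.3 and 13.0 CPM without and 6.3, 6.56 and 6.14 CPM with challenge. No pair of groups overlapped, and the order of the groups was that of Siglech. The fitted log2 fold change with challenge was -5.69 ± 0.38 in wild-type and -1.07 ± 0.18 in knockout. The wild-type value rests on 5 counts: it was -5.12 without challenged replicate 1, -7.20 without challenged replicate 2, and the pooled ratio of 59.7-fold has an exact 95% interval of 25.3 to 186. The knockout exceeded the wild-type by 1.61 ± 0.19 (log2) without challenge. With challenge the fitted difference was 6.23 ± 0.36, and was 5.66 and 7.74 without those replicates.

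Members of the Cd209 family are near-identical in part, so their counts may be divided unevenly. Cd209d, a neighbouring relative, measured 1.69 ± 0.53 CPM in unchallenged and 0.0446 ± 0.045 in challenged wild-type, and 7.24 ± 0.28 and 3.76 ± 0.36 CPM in unchallenged and challenged knockout libraries. The fitted log2 fold change with challenge was -4.98 ± 0.47 in wild-type and -0.96 ± 0.2 in knockout for Cd209d, and 0.33 ± 0.18 and -0.08 ± 0.17 for Cd209c. Cd209d was picked out after its values were seen, as the relative whose profile lay nearest to Cd209a, so these values are a description with no test.

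Clec10a encodes the galactose-type lectin MGL1 of type 2 dendritic cells and macrophages (chromosome 11, 70156197 to 70170834, plus strand). It differed by genotype in both conditions. Wild-type libraries measured 2.56, 3.38 and 3.45 CPM without and 1.86, 2.09 and 2.06 CPM with challenge. Knockout libraries measured 8.74, 7.73 and 8.86 CPM without and 7.44, 5.57 and 5.21 CPM with challenge. All knockout libraries were above all wild-type libraries, and within each genotype all challenged libraries were below the unchallenged ones. The log2 difference between genotypes was 1.44 without and 1.51 with challenge, and the challenge responses, -0.54 in wild-type and -0.48 in knockout, lay 0.06 apart. Its relative Mgl2 measured 0.208 to 0.531 CPM as group means.

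Flt3 and Zbtb46, shared by conventional dendritic cells and their progenitors, formed a second pattern. Flt3 encodes the receptor tyrosine kinase for FLT3 ligand and is also carried by lymphoid and myeloid progenitors (chromosome 5, 147330741 to 147400489, minus strand). Its values were 13.8, 14.1 and 14.2 CPM in unchallenged wild-type and 46.3, 48.4 and 52.6 CPM in challenged wild-type libraries. They were 23.3, 24.6 and 25.5 CPM in unchallenged knockout and 23.8, 21.6 and 15.8 CPM in challenged knockout libraries. The challenged wild-type libraries were above all others and the knockout groups overlapped. Flt3 was 3.76-fold higher with challenge in wild-type (log2 1.91 ± 0.12), against -0.27 ± 0.12 in knockout, and the challenge responses differed by -2.18 ± 0.16.

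Zbtb46 encodes a zinc finger repressor of the conventional dendritic cell lineage that is also expressed in endothelium (chromosome 2, 181387762 to 181459426, minus strand). Unchallenged wild-type libraries measured 12.3, 12.3 and 11.6 CPM and challenged ones 41.4, 43.5 and 47.5 CPM. Knockout libraries measured 15.4, 15.4 and 15.2 CPM without and 16.8, 16.9 and 12.2 CPM with challenge. Again the challenged wild-type group stood above all others, and the knockout groups overlapped because replicate 3 of the challenged group was low. The log2 fold change was 1.97 ± 0.11 in wild-type and -0.01 in knockout, or 0.12 without that replicate. Over the 12 libraries, Flt3 and Zbtb46 were each other's nearest member, with a root mean square difference of 0.208 between their centred log2 CPM profiles. The gene nearest to Zbtb46 was Cish, a cytokine-induced inhibitor of STAT5 signalling, at 0.106, with 14.9 ± 2.0, 53.2 ± 4.6, 17.5 ± 1.1 and 18.8 ± 3.6 CPM in unchallenged and challenged wild-type and in unchallenged and challenged knockout libraries. The 8 endothelial and stromal markers summed to 221 to 268 and 228 to 234 CPM in wild-type and to 160 to 175 and 178 to 193 CPM in knockout libraries without and with challenge. Behind the level wild-type sum, Pecam1, Cdh5, Kdr, Col1a1 and Sparc rose with challenge and Vwf fell (edgeR, adjusted p under 0.05), and none of the 8 passed in knockout. Of all tested genes 32.4% rose and 30.9% fell in wild-type, and 15.6% rose and 11.5% fell in knockout. Sparc, a matrix protein, measured 3.48 ± 0.36 and 18.4 ± 2.9 CPM in wild-type and 9.1 ± 0.63 and 10.8 ± 0.99 CPM in knockout, and Vwf, the von Willebrand factor, 75.0 ± 14 and 13.3 ± 1.8 CPM in wild-type, without and with challenge. The part of endothelial or stromal cells in the Zbtb46 level was not tested.

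**Figure D3:**
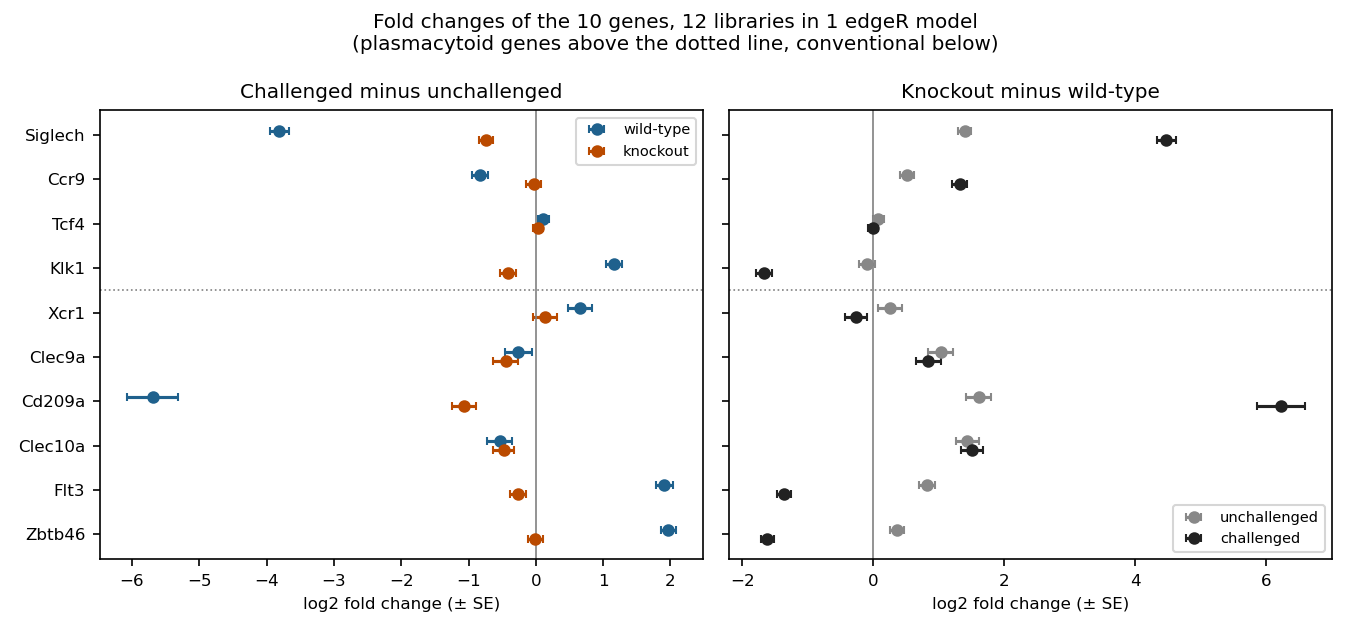
Log2 fold changes (horizontal axes, ± SE) of the 10 genes from 1 edgeR model over 12 libraries, for challenge in each genotype on the left and for knockout against wild-type in each condition on the right. Siglech and Cd209a are lowest after challenge in wild-type, at -3.81 and -5.69, and Flt3 and Zbtb46 highest, at 1.91 and 1.97, whereas the knockout values lie between -1.07 and 0.14. Both panels are a description, since the genes were chosen on these levels.

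Only between the unchallenged genotypes did a member group share 1 direction. All 6 conventional genes were above wild-type in knockout there, without overlap. For Xcr1 the groups nearly met, at up to 2.07 CPM in unchallenged wild-type and from 2.08 CPM in unchallenged knockout libraries. The pooled ratio of Xcr1 in this comparison was 1.18, and its exact interval for counting error, 0.91 to 1.53, includes no difference. In each of the other comparisons of the members both groups held values of either sign. All 10 passed the filter on low counts. After challenge in wild-type the libraries did not overlap for 8 of the 10, against 70.3% of the 16694 tested genes. In knockout they did not overlap for 5 of the 10, against 39.3%. Between the genotypes 8 of the 10 did not overlap without challenge, against 32.6%, and 8 with challenge, against 53.6%. Since the members were selected on these levels, no calls are given for them and nothing is read from these counts.

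The median log2 fold change of the 4 plasmacytoid members was -0.36 with challenge in wild-type, -0.22 in knockout, 0.3 for genotype without challenge and 0.66 with challenge. For the 6 conventional members these medians were 0.2, -0.36, 0.92 and 0.29, and for all tested genes they were between -0.01 and 0. The medians hide members that moved apart. Within the plasmacytoid group the root mean square distance from the group's mean profile was 0.15 for Ccr9, 0.5 for Tcf4, 1.077 for Klk1 and 1.504 for Siglech, and within the conventional group it ran from 0.184 for Clec9a to 2.129 for Cd209a. Siglech lay nearer to Cd209a (0.597) than to any plasmacytoid member. The tested genes nearest to the mean plasmacytoid profile were Tbcel, Mkrn1, Ranbp10, Dcaf6, Asb1 and Bnip3l (0.096 to 0.123), and those nearest to the mean conventional profile were Abcb6, Fn1, Abcb10, Fam234b, Dnajb13 and Ubac1 (0.125 to 0.166). These distances describe 12 libraries in 4 groups.

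Genes outside the 10 were tested. Many of them are not restricted to dendritic cells: Itgax, Itgam, Cx3cr1, Zeb2, Runx2, Id2, Ikzf1 and Irf8 are also expressed in NK cells, and Spib, Bcl11a, Ciita and the MHC class II genes in B cells. Of 26 other plasmacytoid genes, 15 rose and 8 fell after challenge in wild-type (median log2 0.41; edgeR, adjusted p under 0.05, as for all counts below). Of all tested genes 32.4% rose and 30.9% fell in this comparison, so the share of the list that fell was close to that of all genes. Irf7, the master regulator of type I interferon genes, rose from 108 ± 5.0 to 686 ± 30 CPM in wild-type (log2 2.77 ± 0.1, adjusted p = 6.33e-12) and from 113 ± 6.2 to 303 ± 52 CPM in knockout (1.42 ± 0.1, adjusted p = 6.2e-08). Bst2, an interferon-induced surface protein used to sort plasmacytoid cells, rose by 3.36 ± 0.15 in wild-type (adjusted p = 7.29e-10) and by 1.41 ± 0.14 in knockout (adjusted p = 1.31e-05). The nucleic acid receptors Tlr7 and Tlr9 rose by 2.09 ± 0.13 and 1.9 ± 0.12 in wild-type. In knockout they rose by 1.35 ± 0.13 and 0.92 ± 0.12. Tlr7 is X-linked, so sex differs with the groups here too.

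The plasmacytoid genes that fell in wild-type were Runx2, Zeb2, Cox6a2, Pacsin1, Lair1, Rpgrip1, Cd300c and Upb1. Cox6a2, a cytochrome c oxidase subunit otherwise typical of muscle, went from 3.46 ± 0.14 to 0.441 ± 0.044 CPM (-2.85 ± 0.21, adjusted p = 1.27e-08). In knockout it measured 3.99 ± 0.54 and 3.07 ± 0.32 CPM without and with challenge and did not pass the test, and the difference between the responses was 2.46 ± 0.27 (adjusted p = 5.28e-06). Cd300c fell by 3.66 ± 0.46 in wild-type (adjusted p = 4.82e-06). These falls took in genes with restricted expression, such as Cox6a2, and genes that NK cells carry, such as Zeb2. Zeb2 fell by 1.24 ± 0.1 in wild-type (edgeR, adjusted p = 3.17e-08). Of the 8 NK markers 6 fell there, Prf1 rose and Gzma did not pass, where 30.9% of all tested genes fell and 32.4% rose. The part of NK cells in these falls was not tested. In knockout 10 of the 26 plasmacytoid genes rose and Runx2, Lair1, Rpgrip1, Cd300c and Cbfa2t3 fell (median 0.09), where 15.6% and 11.5% of all tested genes did.

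Between genotypes without challenge, 6 plasmacytoid genes were higher in knockout and 3 lower (median 0.1), where 6.64% and 5.07% of all tested genes were, and these 9 calls went to 4 without unchallenged wild-type replicate 3. Lair1, an inhibitory collagen receptor, was higher by 0.55 ± 0.08 (adjusted p = 0.000186) and Upb1, an enzyme of pyrimidine breakdown, by 1.02 ± 0.23 (adjusted p = 0.00829), and the lower ones were Spib, Ly6d and Mzb1, all also B cell genes. With challenge, 7 were higher and 13 lower (median -0.26), where 22.7% and 25.9% of all tested genes were. Tex2, Irf8 and Irf7 had log2 differences of -1.1 ± 0.06, -1.11 ± 0.08 and -1.28 ± 0.1 (adjusted p = 2.21e-09, 3.91e-08 and 5.7e-08). The response to challenge differed for 14, with Zeb2, Cox6a2, Rpgrip1 and Cd300c above and 10 below the wild-type response (median -0.24). Among all tested genes 16.7% were above and 18.5% below it. The 15 type I interferon genes were too low to be tested: in wild-type they had 0 counts without and 57 with challenge, and in knockout 2 and 12. The 0 allows up to 0.0521 CPM over that group. Ifnb1 made up 17 of the 57 and 8 of the 12 counts.

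**Figure D4:**
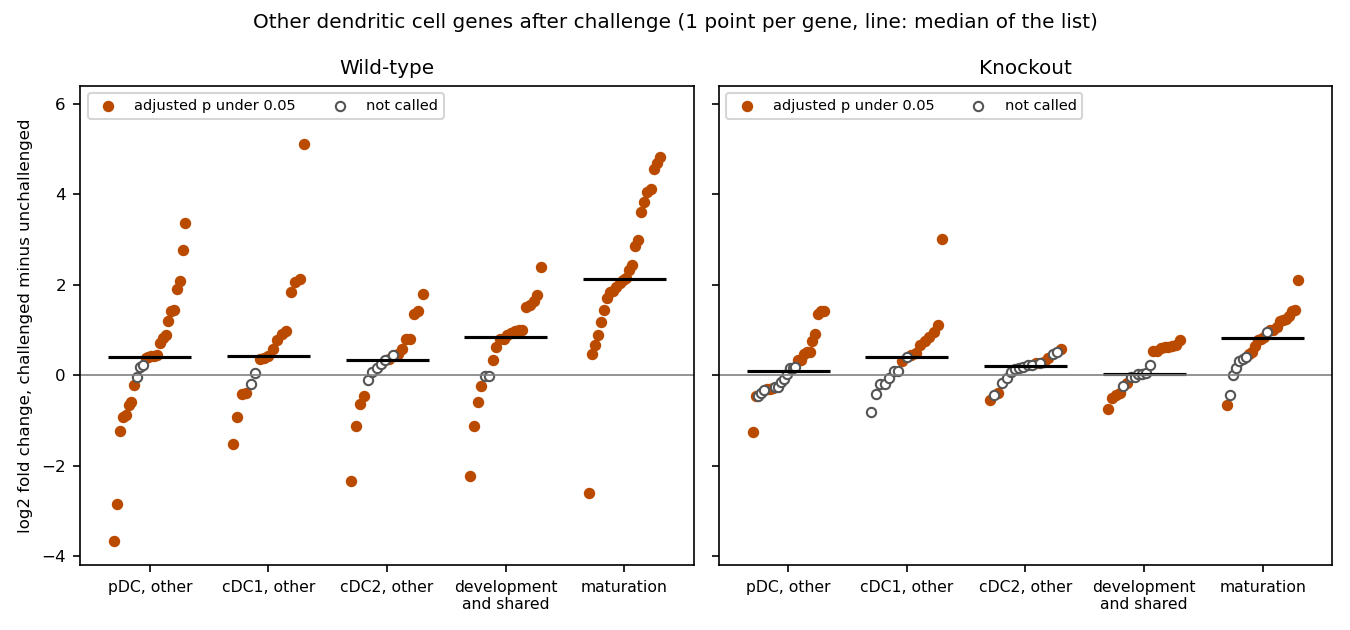
Log2 fold change with challenge (vertical axes) of tested genes in 5 lists of other dendritic cell genes, in wild-type on the left and knockout on the right. Filled points are genes with an edgeR adjusted p under 0.05, open points are genes that did not pass and lines are list medians. The maturation list has a median of 2.13 in wild-type and 0.83 in knockout.

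Of 17 tested type 1 conventional genes (Cd207 was too low to be tested), 11 rose and 4 fell with challenge in wild-type (median 0.42). The shares of all tested genes that did so were 32.4% and 30.9%. In knockout 9 of the 17 rose (median 0.41), against 15.6% of all tested genes. None of the 17 fell in knockout by edgeR, against 11.5% of all tested genes. There 2, Snx22 and Id2, were lower at an unadjusted p under 0.05, and both were called lower by DESeq2. Batf3, the transcription factor of this subset, rose from 7.27 ± 0.62 to 29.7 ± 3.5 CPM in wild-type (2.14 ± 0.16, adjusted p = 1.51e-08) and from 5.73 ± 0.76 to 10.4 ± 2.6 CPM in knockout (0.85 ± 0.17, adjusted p = 0.00153). Tlr3, the sensor of double-stranded RNA, rose by 1.84 ± 0.16 and 0.75 ± 0.16 in these genotypes. Ifi205, an interferon-induced gene, rose by 5.11 ± 0.31 and 3.01 ± 0.3. The genes that fell in wild-type were Snx22, Gcsam, Cd8a and Cd24a. Snx22, a sorting nexin, was 5.36 ± 0.82 and 1.73 ± 0.51 CPM without and with challenge in wild-type and 14.0 ± 1.5 and 10.5 ± 0.79 CPM in knockout, which is the order of groups seen in Siglech.

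Without challenge Snx22, Itgae, Cd24a and Tlr11 were higher and Wdfy4, Gcsam and Btla lower in knockout, where 6.64% and 5.07% of all tested genes were. These 7 calls went to 4 without unchallenged wild-type replicate 3 or unchallenged knockout replicate 2 or 3. Cd24a, which is abundant in erythroid cells as well, measured 120 ± 9.5 against 229 ± 8.2 CPM (0.95 ± 0.14, adjusted p = 0.0007). With challenge Snx22, Itgae, Cd8a and Cd24a were higher and 8 others lower, where 22.7% and 25.9% of all tested genes were. Batf3 showed a difference of -1.61 ± 0.15 there (adjusted p = 5.52e-07). The response to challenge differed for 9, with Snx22, Gcsam, Cd8a and Btla above and Batf3, Tlr3, Rab7b, Ifi205 and Fkbp1b below the wild-type response. Among all tested genes 16.7% were above and 18.5% below it. Cd8a moved in opposite directions, falling by 0.41 ± 0.08 in wild-type (adjusted p = 0.000303) and rising by 0.45 ± 0.08 in knockout (adjusted p = 0.000469), and it is itself 1 of the 10 T cell markers. All 10 of these fell in wild-type, where 30.9% of all tested genes did. In knockout 8 rose, Lef1 fell and Cd28 did not pass, where 15.6% of all tested genes rose and 11.5% fell. The T cell markers summed to 355 to 381 and 204 to 214 CPM in wild-type and to 277 to 285 and 328 to 374 CPM in knockout libraries without and with challenge.

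Of 18 type 2 conventional genes, 8 rose and Esam, Cd4, Itgam and Cx3cr1 fell in wild-type with challenge (median 0.34). The shares of all tested genes that did so were 32.4% and 30.9%. Sirpa, the receptor for CD47 that marks this subset and macrophages, rose from 42.8 ± 3.9 to 102 ± 5.6 CPM in wild-type (1.35 ± 0.1, adjusted p = 1.17e-08), and its smaller rise in knockout (0.27 ± 0.1, adjusted p = 0.0489) lost its call with other scalings and in 9 of 12 fits without 1 library. Clec4a2, a lectin with an inhibitory motif, rose by 1.8 ± 0.2 in wild-type (adjusted p = 1.09e-06). Irf4, the transcription factor of this subset and of activated lymphocytes, rose by 0.8 ± 0.06 in wild-type and 0.58 ± 0.06 in knockout. In knockout Sirpa, Irf4, Cd4 and Ltb rose and Itgam and Cx3cr1 fell (median 0.21), where 15.6% and 11.5% of all tested genes did. The call of Ltb was lost without challenged knockout replicate 1 or unchallenged knockout replicates 2 or 3. Cx3cr1, the fractalkine receptor, went from 37.4 ± 0.86 to 6.88 ± 0.76 CPM in wild-type (-2.34 ± 0.1, adjusted p = 2.9e-11) and from 39.3 ± 0.52 to 27.3 ± 3.1 CPM in knockout (-0.54 ± 0.09, adjusted p = 0.000399).

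Without challenge Sirpa, Clec4a2, Clec4a1, Clec12a and Csf1r were higher and Irf4 and Esam lower in knockout (median 0.02). The shares of all tested genes were 6.64% and 5.07%. With challenge Cd4, Itgam, Cx3cr1 and Csf1r were higher and Sirpa, Irf4, Rbpj and Epcam lower (median -0.15). This is close to the 22.7% higher and 25.9% lower among all tested genes. Esam, Cd4, Itgam and Cx3cr1 had a response above, and Sirpa, Clec4a2, Mgl2 and Rbpj one below, that of wild-type, which is close to the 16.7% above and 18.5% below among all tested genes, and this count of 8 went to 5 without unchallenged wild-type replicate 2. Csf1r, the receptor for macrophage colony-stimulating factor, was higher in knockout by 0.51 ± 0.11 and 0.45 ± 0.11 without and with challenge (adjusted p = 0.00454 and 0.00246). The 18 monocyte and macrophage markers, none at 0, summed to 1105 to 1146 CPM in unchallenged wild-type and 1168 to 1201 in unchallenged knockout, and to 1730 to 1973 and 1380 to 1645 CPM in the challenged groups. Of these 15 rose and 3 fell in wild-type with challenge, and 13 rose and 1 fell, Ccr2, in knockout. Of all tested genes 32.4% rose and 30.9% fell in wild-type, and 15.6% rose and 11.5% fell in knockout. Between the unchallenged genotypes 7 of the 18 were higher in knockout and none lower (median 0.27), where 6.64% and 5.07% of all tested genes were. The part of monocytes and macrophages in the type 2 genes was not tested.

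Of 20 genes of dendritic cell development or shared by the subsets, 14 rose and Itgax, Flt3l, Ikzf1 and Kit fell in wild-type with challenge (median 0.85). The shares of all tested genes that did so were 32.4% and 30.9%. In knockout 8 rose and Itgax, Csf2rb2, Flt3l, Ikzf1 and L1cam fell (median 0.03), where 15.6% and 11.5% of all tested genes did. Csf2rb, the shared beta chain of the GM-CSF, IL-3 and IL-5 receptors, rose from 46.2 ± 2.6 to 228 ± 6.6 CPM in wild-type (2.4 ± 0.11, adjusted p = 4.66e-11). In knockout it measured 138 ± 10 and 119 ± 21 CPM without and with challenge and did not pass the test, and the response differed by -2.64 ± 0.15 (adjusted p = 9.84e-09). Nfil3 rose by 1.5 ± 0.1 in wild-type (adjusted p = 2.99e-09). Itgax, which encodes CD11c and is also an NK cell gene, went from 802 ± 32 to 158 ± 7.9 CPM in wild-type (-2.24 ± 0.08, adjusted p = 3e-12) and from 819 ± 41 to 493 ± 49 CPM in knockout (-0.74 ± 0.07, adjusted p = 3.17e-06). The MHC class II genes rose in both genotypes: H2-Ab1 by 0.97 ± 0.08 and 0.65 ± 0.08 and Cd74, the invariant chain, by 0.94 ± 0.08 and 0.66 ± 0.08. Of the 10 B cell markers 7 rose and Fcer2a fell in wild-type, and 8 rose in knockout, and their part in the class II levels was not tested.

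Without challenge Csf2ra, Csf2rb, Csf2rb2, Spi1 and L1cam were higher in knockout, and Kit, H2-Ab1, H2-Aa, H2-Eb1, H2-DMb2, Cd74 and Ciita were lower (median -0.04). The shares of all tested genes were 6.64% and 5.07%. These 12 calls went to 7 without unchallenged wild-type replicate 3. Csf2rb differed by 1.6 ± 0.11 (adjusted p = 9.73e-08) and Kit, the stem cell factor receptor, by -0.94 ± 0.06 (adjusted p = 1.29e-07). The 10 B cell markers moved with the class II genes, with sums of 1637 to 1863 CPM in unchallenged wild-type and 1215 to 1248 CPM in unchallenged knockout libraries and 9 of 10 lower, and their part was not tested. With challenge 15 of the 20 were lower in knockout and Itgax, Flt3l and Ikzf1 higher (median -0.56), where 25.9% and 22.7% of all tested genes were. The response differed for 13, with Itgax, Flt3l and Ikzf1 above and 10 below wild-type (median -0.28), where 16.7% and 18.5% of all tested genes were.

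The maturation genes had the largest median with challenge of the 5 lists in both genotypes, which no test compared. In wild-type 23 of 24 rose with challenge and Apol7c fell (median 2.13), where 32.4% and 30.9% of all tested genes did. In knockout 16 rose and Apol7c fell (median 0.83), where 15.6% and 11.5% did. Ccr7, which guides mature dendritic cells to lymph nodes, measured 47.9 ± 2.5 and 244 ± 10 CPM without and with challenge in wild-type (2.45 ± 0.08, adjusted p = 2.58e-12) and 39.3 ± 3.5 and 79.8 ± 7.0 CPM in knockout (1.01 ± 0.08, adjusted p = 3.17e-07). Cd86, a ligand of CD28, measured 12.2 ± 1.7 and 140 ± 1.8 CPM in wild-type (3.62 ± 0.1, adjusted p = 5.36e-13) and 11.2 ± 1.0 and 30.7 ± 3.2 CPM in knockout (1.45 ± 0.1, adjusted p = 7.56e-08). Ccl22, a chemokine of mature dendritic cells, measured 3.87 ± 0.93 and 62.1 ± 1.4 CPM in wild-type and 4.51 ± 0.46 and 7.86 ± 0.69 CPM in knockout. Cd274, which encodes the inhibitory ligand PD-L1 and is induced in many cell types, rose by 3.0 ± 0.08 and 1.2 ± 0.08. Il12b, a subunit of IL-12 that was picked out after its values were seen, went from 0.533 ± 0.31 to 7.25 ± 0.21 CPM in wild-type and from 0.596 ± 0.17 to 1.42 ± 0.45 CPM in knockout. Marcksl1, Cd83, Cd80, Cd40 and Il15ra rose in both genotypes as well, whereas Socs2 rose by 2.04 ± 0.1 in wild-type and measured 0.16 ± 0.1 in knockout without passing the test.

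Every maturation gene differed between the challenged genotypes: 23 were lower in knockout and Apol7c higher (median -1.73). Of all tested genes 25.9% were lower and 22.7% higher in this comparison. The difference in response to challenge was negative for 20 and positive for Apol7c, which fell less in knockout (median -1.44). It did not pass the test for Il12a, Il15 and Icosl. Among all tested genes this difference was negative for 18.5% and positive for 16.7%. The differences in response were -3.32 ± 0.19 for Ccl22 (adjusted p = 1.23e-08), -2.17 ± 0.14 for Cd86 (adjusted p = 4.16e-08) and -1.33 ± 0.09 for Tnfrsf9, the costimulatory receptor 4-1BB (adjusted p = 4.12e-08). Apol7c, an apolipoprotein L family member of dendritic cells, measured 25.0 ± 1.5 and 3.83 ± 0.19 CPM in wild-type and 31.7 ± 0.34 and 20.2 ± 2.0 CPM in knockout without and with challenge. Without challenge Cacnb3, Apol7c and Zmynd15 were higher and Ccr7, Cd83, Pdcd1lg2, Il15 and Tnfrsf9 lower in knockout (median -0.09). The shares of all tested genes were 6.64% and 5.07%. This count of 8 maturation genes fell to 5 without unchallenged wild-type replicate 2, 3 or 4 or unchallenged knockout replicate 2 or 3. Several of these genes, among them Cd274, Tnfrsf9, Il15ra, Socs2 and Tnfrsf4, are also induced in activated lymphocytes, and neutrophil markers moved beside them, with sums of 72.8 to 76.6 CPM and 1701 to 2005 CPM in wild-type and 492 to 508 and 870 to 1315 CPM in knockout libraries without and with challenge. All 12 neutrophil markers rose in wild-type, and 9 rose and 3 fell in knockout. Which cells the maturation transcripts came from was not tested.

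The ligands of the member receptors were measured in the same RNA. Flt3l, the ligand of FLT3 and a growth factor for dendritic cells that NK cells and T cells produce, measured 101 ± 6.5 and 43.1 ± 0.74 CPM in wild-type and 108 ± 3.1 and 80.2 ± 6.3 CPM in knockout without and with challenge. It fell by 1.13 ± 0.07 on the log2 scale in wild-type (adjusted p = 2.77e-09) and by 0.44 ± 0.07 in knockout (adjusted p = 0.000307), and the difference between the responses was 0.69 ± 0.1 (adjusted p = 8.77e-05). Flt3l was thus lowest in the group in which Flt3 was highest. Xcl1, the ligand of XCR1 and an NK cell product, rose from 81.4 ± 3.1 to 94.3 ± 5.7 CPM in wild-type (0.32 ± 0.06, adjusted p = 0.00043) and measured 69.4 ± 1.4 and 71.3 ± 2.7 CPM in knockout. It was lower in knockout by a log2 difference of -0.21 ± 0.06 without challenge (adjusted p = 0.0409), a call lost in 8 of the 12 fits that left out a library, and by -0.5 ± 0.06 with challenge (adjusted p = 1.05e-05). Ccl25, the ligand of CCR9, measured 4.77 to 7.91 CPM as group means. Only its difference between the challenged genotypes passed, at 0.41 ± 0.14 (adjusted p = 0.0246), and that call was lost in 3 of the 12. Its difference without challenge, 5.95 ± 0.34 CPM in wild-type and 7.91 ± 0.69 CPM in knockout, was of like size. That difference ran from 0.38 to 0.49 in the 12 fits and passed in 2 of them.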

How the data were processed

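RNA was measured in 12 libraries of 4 groups. The deposited values are raw counts of reads for each gene. Per the submitters' processing notes, the tools were RSEM 1.3.0, Bowtie2 2.2.8, Trim Galore 0.4.1 and bcl2fastq, with GRCm38. The values were whole numbers. Their rounding and the annotation release are not stated in any source used here. Totals ran from 17624530 to 23665679 counts, and 3 counts over a group were worth 0.0441 to 0.0521 CPM. Reads carry no molecular identifiers, so intervals and floors cover counting error only. No library duplicated another: within groups the ratio of squared differences to counting noise was 3.64 to 30.6, where 1 would be counting noise alone.

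CPM used column totals. The 16694 genes kept by filterByExpr were scaled by TMM. All libraries entered 1 fit by group in edgeR 4.0.16 (R 4.3.3; quasi-likelihood F test, robust), with Benjamini-Hochberg adjustment over all tested genes in each of 5 contrasts and calls at an adjusted p below 0.05. The code was tested on simulated data. Standard errors come from each fold change and its F statistic. Members, lists, the rule for named genes and tests were chosen with earlier results of these data known. From each of 5 lists of other dendritic cell genes the rule named up to 6 genes per contrast with the smallest p and at least 2 CPM in the higher group, every gene of a direction with 5 or fewer calls, and the ligands. Likeness is the root mean square difference of centred log2 CPM (prior count 2) among tested genes of at least 1 CPM, leaving out receptor segments and clone-named genes. One erythroid marker is not reported here and was left out of the sums. Itgam is listed under 2 identifiers, and the one with more counts was used. Gene positions are from GENCODE vM21 and promoters from RefSeq, both on GRCm38. Alternatives were DESeq2 1.42.0, median-ratio and upper-quartile scaling, no filter, a replicate block, fits of 2 groups and fits without a library. Python 3.11.15, numpy 2.4.6, pandas 2.3.3, scipy 1.17.1 and matplotlib 3.10.9 were used.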

Additional observations from a re-analysis of the deposited data

Results flagged for a closer look

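In wild-type every challenged library had more Klk1 than every unchallenged one, and in knockout every challenged library had less. Its challenge response in knockout minus that in wild-type was -1.58 (log2). No p is given for this difference, because the gene was chosen on these levels.

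For the following genes the difference between the challenge responses, knockout minus wild-type in log2, passed the interaction test of edgeR (adjusted p under 0.05). The response was lower in knockout among plasmacytoid genes for Bst2 (-1.95), Irf7 (-1.36), Irf8 (-1.23) and Tex2 (-1.27). It was lower among type 1 genes for Batf3 (-1.29), Ifi205 (-2.1) and Tlr3 (-1.09), and among type 2 genes for Clec4a2 (-1.34) and Sirpa (-1.08). Among development genes it was lower for Csf2rb (-2.64), Csf2rb2 (-2.04), Nfil3 (-1.54), Relb (-1.35) and Spi1 (-1.23), and among maturation genes for Ccl22 (-3.32), Cd86 (-2.17), Socs2 (-1.88), Cd274 (-1.8) and Tnfrsf9 (-1.33).

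The difference was positive for Cox6a2 (2.46), Apol7c (1.95), Cx3cr1 (1.8), Itgax (1.5), Gcsam (1.34), Snx22 (1.1), Cd4 (1.01), Zeb2 (0.98), Cd8a (0.86), Itgam (0.73) and Esam (0.7). Most of these fell in wild-type and fell less or did not pass the test in knockout, and Cd4 and Cd8a fell in wild-type and rose in knockout. Genotype and sex cannot be told apart in any of them.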

How the results depend on the processing

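The alternatives were run on the counts over all genes, the 25 counts over the lists and the medians of both member groups in 5 contrasts each. Under other scalings, DESeq2, no filter, fits of 2 groups (not possible for the difference between responses) and leaving out the 2 libraries that stand apart, a choice made after seeing the data, the medians kept their sign and the counts stayed within 1.5 times. The replicate block changed 1 of them: maturation genes called between unchallenged genotypes went from 8 to 5 (2 higher, 3 lower). The labels do not say whether replicate numbers pair the samples. For a shared number in the block, the residual correlations were 0.12, -0.048 and 0.006 between unchallenged genotypes and -0.317, 0.058 and -0.148 between challenged ones. Across challenge they were 0.016 and 0.144 (wild-type) or 0.249 and 0.024 (knockout). Titles of unchallenged libraries also end in a second replicate number, on which no block was fitted. With that number the correlations across challenge were 0.158, -0.065 and 0.038 (wild-type) or -0.246, 0.048 and -0.025 (knockout). Genes called with challenge in wild-type were 10577, or 9714 with the block. Upper-quartile scaling moved the median of all genes by -0.12 (log2) with challenge in wild-type, and the share of calls that were higher from 57.5% to 46.7% with challenge in knockout, from 51.2% to 42.8% in wild-type, from 46.7% to 56.7% between challenged genotypes and from 47.5% to 55.3% for the difference between responses.

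Leaving out 1 library at a time, the calls between unchallenged genotypes ran from 4 to 11 for plasmacytoid genes (9 with all, 4 without wild-type replicate 3), from 4 to 8 for type 1 genes (7 with all, 4 without wild-type replicate 3 or knockout replicates 2 or 3), from 7 to 12 for development genes (12 with all, 7 without wild-type replicate 3) and from 5 to 10 for maturation genes. Type 2 genes whose response differed ran from 5 to 10 (8 with all, 5 without unchallenged wild-type replicate 2). The cause was not tested. Of 990 fold values of the members over all alternatives, 974 moved by less than the spread between replicates. Of 3064 values of other named genes, 2998 kept their call, 63 lost it, 3 gained one and 0 reversed. Calls lost under some setting include Mzb1, Spib, Smim5, Wdfy4, Tlr11, Cd74, Apol7c and Pdcd1lg2 between unchallenged genotypes and Esam in the difference between responses. Depth limits Cd209a in challenged wild-type libraries (5 counts), Xcr1 and the type I interferon genes.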
